A study of Mus musculus with 24 samples.

Results

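Toll-like receptors (TLRs) and their proximal signalling partners were followed in the hearts of mice with experimental autoimmune myocarditis (EAM). The set held 10 genes out of the 41388 in the count table, namely Tlr1, Tlr2, Tlr3, Tlr4, Tlr7, Tlr8, Tlr9 and Tlr13, the adaptor Myd88 and the coreceptor Cd14. They were chosen by symbol, and each symbol matched a single Ensembl identifier. The hearts came from 24 wild-type male BALB/cAnNCrl mice (labelled Balb/c) aged 8 to 10 weeks at immunization, in 6 groups of 4. EAM mice received 100 μg of a myosin heavy chain-α peptide emulsified in complete Freund's adjuvant with added heat-killed Mycobacterium tuberculosis on days 0 and 7, together with pertussis toxin on day 0. Control mice received the adjuvant emulsion with PBS in place of the peptide, and pertussis toxin on the same schedule, so the mycobacterial material was common to all 24 mice. RNA was taken from a portion of the heart on day 10 (D10), day 15 (D15) or day 21 (D21). According to the study's methods, EAM samples were picked to contain inflammation as far as possible, because not every mouse of the model may develop it. The study found more CD45-positive leukocytes in EAM hearts at D15 and D21. At D10 it reported no EAM mouse with raised CD45-positive cells in the heart or raised cardiac troponin I.

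TLRs are membrane receptors of innate immunity that recognize conserved microbial molecules and some products of damaged tissue. Tlr1, Tlr2 and Tlr4 act at the cell surface, whereas Tlr3, Tlr7, Tlr8, Tlr9 and Tlr13 sense nucleic acids in endosomes. Apart from Tlr3, which signals through the adaptor TRIF (encoded by Ticam1), these receptors recruit Myd88, which engages IRAK kinases and leads to activation of NF-kappaB and interferon regulatory factors. Macrophages, neutrophils and dendritic cells carry much of the TLR repertoire, and in the heart some receptors, Tlr4 among them, are also made by resident tissue cells. Mycobacterial lipoproteins and DNA are ligands of Tlr2 and Tlr9.

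Libraries contained 15814863 to 24980864 assigned reads with a median of 19469782, so that 3 reads, taken as the lower limit of a level, corresponded to 0.12 to 0.19 reads per 1000000 assigned reads (CPM). Levels are given as CPM after TMM normalization, a scaling that assumes most genes do not change, and a gene was called at a false discovery rate (FDR) below 0.01 over all genes tested together with a change of at least 2-fold. All 10 genes passed the filter on low counts at each day, and would have passed it on the control hearts alone. Markers of cardiomyocytes were abundant in every heart (summed level 6013 to 27888 CPM), as the tissue label requires. Some features of the samples bear on the results. D10 EAM replicate 1 stood apart from its group, with Ptprc, the gene for the leukocyte antigen CD45, at 194 CPM against 27.7 to 56.7 in the other D10 EAM hearts. All 4 D21 EAM libraries carried a library code that differed from the code of the other 20 libraries, so at D21 this code and EAM cannot be told apart. In bulk tissue, a larger number of cells that express a gene and more RNA per cell cannot be told apart either.

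In control hearts the order of the 10 genes was set out per length, as CPM per kb of exon, over the 12 animals of all 3 days. The highest levels belonged to Cd14 (9.44 ± 2.60, SD, n = 12), Myd88 (8.18 ± 1.39) and Tlr4, the receptor for lipopolysaccharide (7.19 ± 1.16), and these 3 ranges overlapped. Tlr4 lay above every value of the next gene, Tlr3, a receptor for double-stranded RNA (4.35 ± 0.451). Below it came Tlr2 at 4.05 ± 1.32, Tlr13 at 2.45 ± 0.853, Tlr7 at 2.22 ± 0.511, Tlr8 at 1.36 ± 0.370, Tlr1 at 1.19 ± 0.644 and Tlr9 at 0.554 ± 0.173 CPM per kb, and each neighbouring pair among these overlapped in range. Tlr4 had the highest and Tlr9 the lowest mean of the receptors at each of the 3 days. Tlr3 came after Tlr4 at D15 and D21, whereas in D10 controls Tlr2 (5.27) had a higher mean than Tlr3 (4), with overlapping ranges.

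Promoter sequence from RefSeq (GRCm38.p6) was found for 7 of the 10 genes, in 8 windows covering 250 bases before to 50 bases after an annotated start. Windows were searched on both strands for 5 motifs, namely NF-kappaB (GGG, any 2 bases, TTTCC), PU.1 (GAGGAAGT), ISRE (GAAA, any 2 bases, GAAA), GAS (TTC, any 3 bases, GAA) and AP-1 (TGANTCA). These are binding motifs of factors that act downstream of TLRs or of interferons, or that are active in myeloid cells. The 250 bases before the start are shown for 4 genes, in lower case with motif matches in capitals. Myd88 was chosen for its pair of overlapping matches, Tlr3 as the receptor with the smallest D15 change, Tlr2 as the receptor with the smallest adjusted p at D15, and Tlr1 as the partner of Tlr2.
Myd88, chr9:119340019-119340268, minus strand: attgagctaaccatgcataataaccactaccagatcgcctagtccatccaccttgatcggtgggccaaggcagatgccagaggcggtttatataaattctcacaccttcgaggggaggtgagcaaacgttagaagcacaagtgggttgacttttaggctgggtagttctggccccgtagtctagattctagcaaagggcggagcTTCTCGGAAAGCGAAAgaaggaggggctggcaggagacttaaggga
Tlr3, chr8:45410381-45410630, minus strand: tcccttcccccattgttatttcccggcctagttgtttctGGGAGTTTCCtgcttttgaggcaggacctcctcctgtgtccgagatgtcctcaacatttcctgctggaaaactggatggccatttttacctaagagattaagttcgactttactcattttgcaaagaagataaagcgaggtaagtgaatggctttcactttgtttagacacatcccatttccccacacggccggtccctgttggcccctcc
Tlr1, chr5:64933559-64933808, minus strand: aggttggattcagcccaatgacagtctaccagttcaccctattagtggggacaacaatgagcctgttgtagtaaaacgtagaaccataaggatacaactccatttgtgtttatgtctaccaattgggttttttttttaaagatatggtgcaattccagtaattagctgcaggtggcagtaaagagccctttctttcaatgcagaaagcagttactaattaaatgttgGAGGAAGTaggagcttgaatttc
Tlr2, chr3:83841609-83841858, minus strand: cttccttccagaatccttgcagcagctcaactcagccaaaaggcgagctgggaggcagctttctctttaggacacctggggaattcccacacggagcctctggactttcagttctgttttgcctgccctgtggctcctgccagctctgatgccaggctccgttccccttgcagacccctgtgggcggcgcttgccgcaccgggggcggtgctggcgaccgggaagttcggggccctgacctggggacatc
The Myd88 capitals hold a GAS match from position -46 to -38 and an ISRE match from -40 to -31, counted from the start, which share 3 bases. Windows with a GAS match made up 8.3% of all 32851 promoter windows, and those with an ISRE match 3.44%. Tlr3 held the NF-kappaB motif from -211 to -202, found in 1.63% of windows. The Tlr1 window shown held the PU.1 motif from -23 to -16, found in 3.2% of windows, while its other annotated window held a GAS match. Neither Tlr2 nor Tlr13 had an exact match in these windows. Only the strings given were searched, so other forms of a motif were not counted. The Tlr2 sequence shown holds GGGAATTCCC, which is close to the NF-kappaB string. Tlr9 held a PU.1 match and an AP-1 match, the latter found in 7.81% of windows, and Tlr8 held a GAS match. In all, 1 of 7 genes matched the NF-kappaB motif as searched, 2 the PU.1 motif, 1 the ISRE, 3 the GAS and 1 the AP-1 motif.

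At D10, none of the 10 genes was called. Each of them had a fitted log2 fold change above 0, from 0.10 for Tlr3 to 1.54 for Tlr1 (median 1.08, against -0.01 over all genes), but adjusted p-values by edgeR's quasi-likelihood test lay between 0.328 and 0.791. No gene of the 15029 tested was called higher (0%). At an unadjusted p under 0.05, 4 of the 10 TLR genes were higher, compared with 9.49% of all genes, and the likelihood ratio test, DESeq2 and limma-voom called 0 of the 10. In no case did all 4 EAM hearts lie above all 4 control hearts, a pattern present in 4.41% of genes.

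The D10 EAM values were dominated by a single heart. Tlr1 was measured at 41.6, 8.16, 13.8 and 8.50 CPM in EAM replicates 1 to 4, and at 9.31, 7.07, 4.44 and 3.97 CPM in controls. Tlr2 gave 97.4, 22.9, 34.1 and 19.6 CPM in EAM and 20.6, 18.4, 14.5 and 9.92 CPM in controls. For Tlr4 the EAM values were 78.2, 45.3, 44.0 and 47.6 CPM and the control values 46.5, 46.6, 48.9 and 46.3 CPM. EAM replicate 1 was the highest heart of its group for all 10 genes, and for each gene at least 1 other EAM heart lay below the highest control. Cd14 had EAM values of 82.2, 31.2, 42.8 and 23.7 CPM and control values of 25.9, 23.1, 18.7 and 12.2 CPM. Myd88 had EAM values of 96.3, 31.9, 45.8 and 28.5 CPM and control values of 28.7, 26.4, 24.4 and 21.2 CPM. For these 2 genes the highest control exceeded the lowest EAM heart by a small margin. Without EAM replicate 1 the median log2 fold change of the 10 genes was 0.40, and Tlr3, Tlr4 and Tlr7 had values below 0 (-0.14, -0.06 and -0.07).

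None of the 10 genes was called between control hearts of different days by edgeR's quasi-likelihood test, where 0.0735% of genes were called lower at D15 and 0.116% at D21 than at D10. Fitted log2 changes of D15 against D10 controls ranged from -1.17 (Tlr1) to 0.12 (Tlr3), and those of D21 against D10 controls from -1.07 (Tlr1) to 0.24 (Tlr3). Tlr1 averaged 6.20 ± 2.48 CPM in D10 controls, 2.77 ± 0.706 at D15 and 2.97 ± 0.678 at D21 (SD, n = 4 each). Its adjusted p-values by edgeR's quasi-likelihood test were 0.645 and 0.39. At an unadjusted p under 0.05, 1 of the 10 genes was lower at D15 and 1 at D21, which was Tlr1 in both cases, compared with 3.21% and 4.77% of all genes, and the likelihood ratio test and limma-voom also called 0 of 10 in both. Over the same samples, the summed level of 6 neutrophil markers was 126 to 230 CPM in D10 controls, 15.9 to 79.4 at D15 and 11.6 to 92.5 at D21, and its part in the Tlr1 values was not tested. The use of all 12 controls as the reference for D10 called 6 of the 10 genes higher in EAM, namely Tlr1, Tlr2, Tlr9, Tlr13, Myd88 and Cd14, compared with 4.09% of all genes.

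**Figure D1:**
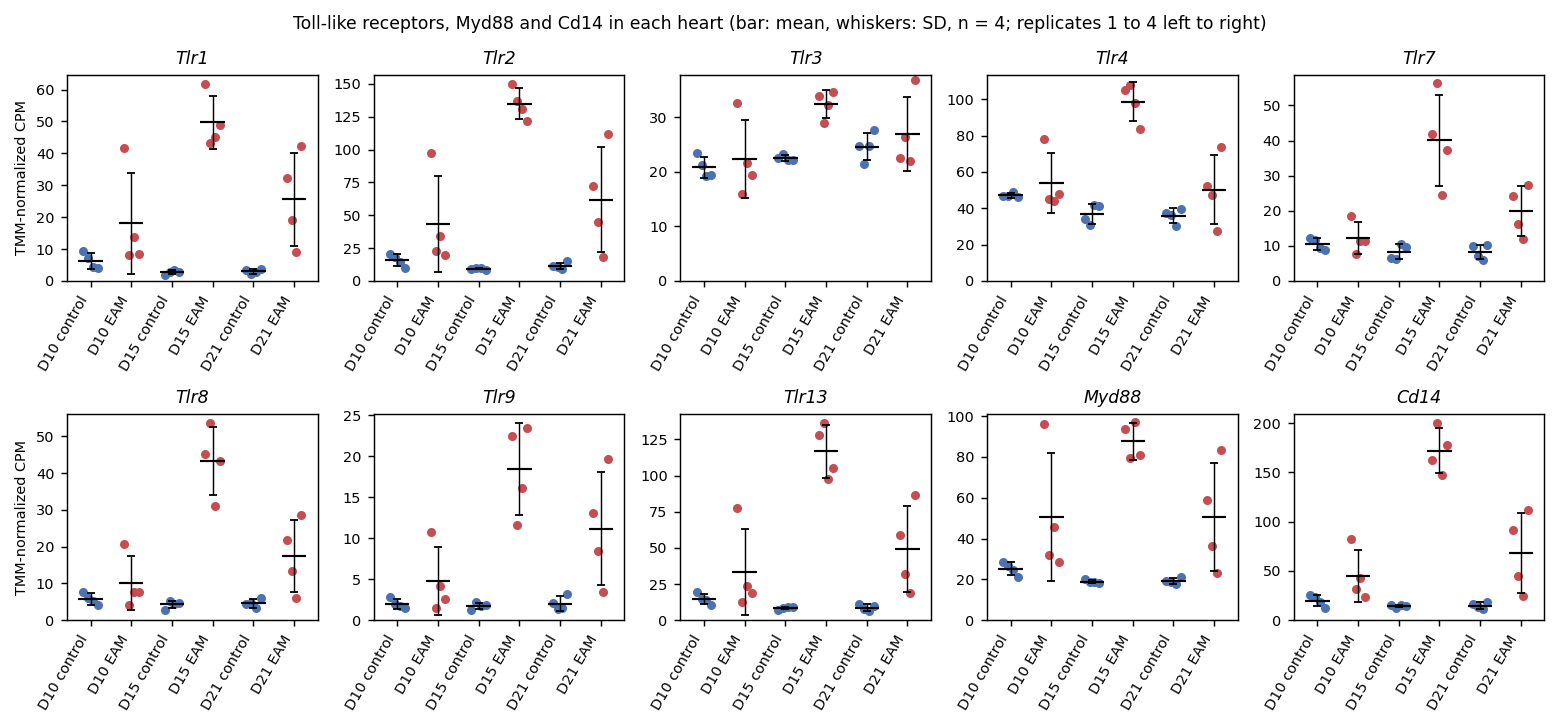
TMM-normalized CPM (vertical axes, linear, starting at 0) of the 10 genes in each of the 24 hearts, with 1 panel per gene and 6 groups of 4 hearts. Points are hearts, with replicates 1 to 4 from left to right, bars are means and whiskers SD. EAM points at D15 lay above all D15 control points in each panel, and at D10 the raised mean came largely from replicate 1.

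At D15, 9 of the 10 genes were called higher in EAM, compared with 18.1% of all genes tested. The median log2 fold change of the 10 was 3.41, against 0.02 over all genes. For each of the 10, including Tlr3, all 4 EAM hearts lay above all 4 control hearts, a pattern found in 34.6% of genes. The count of 9 was the same with the likelihood ratio test, DESeq2 and limma-voom.

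Among the surface receptors, Tlr2 showed the most precise change. Tlr2, which recognizes bacterial lipoproteins as a dimer with Tlr1 or Tlr6, was at 9.12, 9.80, 9.84 and 8.66 CPM in controls and at 150, 137, 131 and 122 CPM in EAM, a log2 fold change of 3.89 ± 0.09 (SE, adjusted p = 6.8e-09 by edgeR's quasi-likelihood test). The lowest EAM heart was thus far above the highest control. Tlr1, its partner for triacylated lipopeptides, had control values of 1.82, 2.95, 3.52 and 2.77 CPM and EAM values of 61.7, 43.2, 45.2 and 49.0 CPM, and its log2 fold change of 4.21 ± 0.20 was the largest of the 10 (adjusted p = 1.79e-07). Some 11.5% of the 75-base stretches of Tlr1 exons also occur in Tlr6, so reads from these stretches may have been split between both genes or left out. Tlr4 was less changed, at 34.0, 30.5, 41.7 and 41.2 CPM in controls and 105, 108, 97.8 and 83.8 CPM in EAM (log2 fold change 1.46 ± 0.12, adjusted p = 5.98e-06). Cd14, a membrane or soluble coreceptor that delivers lipopolysaccharide to Tlr4 and lipopeptides to Tlr2, was at 15.0, 12.6, 15.0 and 14.4 CPM in controls and 163, 200, 147 and 178 CPM in EAM. Its log2 fold change was 3.63 ± 0.11 (adjusted p = 1.73e-08), a value closer to that of Tlr2 than to that of Tlr4.

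The endosomal receptors covered a wide span of changes. Tlr13, a mouse receptor for bacterial ribosomal RNA, was at 7.30, 8.56, 9.12 and 8.95 CPM in controls and 128, 136, 97.9 and 105 CPM in EAM (log2 fold change 3.82 ± 0.13, adjusted p = 2.91e-08). Tlr9, a sensor of unmethylated CpG DNA, was at 1.25, 2.19, 1.76 and 1.83 CPM in controls and 22.5, 11.6, 16.1 and 23.4 CPM in EAM, a log2 fold change of 3.43 ± 0.27 (adjusted p = 4.39e-06). Both had every EAM heart far above the highest control, and EAM replicate 2 was the highest heart for Tlr13 and the lowest for Tlr9. Tlr8, a receptor of the RNA-sensing Tlr7 group, rose from 2.87, 5.26, 4.35 and 4.65 CPM in controls to 45.3, 53.6, 31.1 and 43.4 CPM in EAM (log2 fold change 3.38 ± 0.22, adjusted p = 1.17e-06). Tlr7, which senses single-stranded RNA, had 6.67, 6.38, 10.6 and 9.78 CPM in controls and 42.0, 56.3, 24.6 and 37.2 CPM in EAM, a log2 fold change of 2.30 ± 0.27 (adjusted p = 4.78e-05). Tlr7 and Tlr8 are neighbours on the X chromosome, on the same strand at X:167304929-167330558 and X:167242696-167264329. For both, as for Tlr13 and Cd14, EAM replicate 2 was the highest and replicate 3 the lowest heart.

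Tlr3 was the exception among the 10. Its control values were 22.5, 23.3, 22.2 and 22.2 CPM and its EAM values 34.0, 29.0, 32.3 and 34.6 CPM. The groups did not overlap and the adjusted p of 7.94e-05 passed the FDR limit, but the log2 fold change of 0.57 ± 0.07 was below 2-fold, and Tlr3 was therefore not called. With no fold limit 10 of the 10 genes were called, compared with 33.3% of all genes in this direction. Per length, Tlr3 was at 4.33 CPM per kb in D15 controls, below Tlr4 (6.63) and apart from it in range, and at 6.24 in D15 EAM hearts, where it overlapped in range with Tlr9 (5.29).

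Myd88 itself was at 20.1, 18.7, 18.8 and 18 CPM in D15 controls and at 93.5, 79.3, 97.1 and 80.7 CPM in EAM. The log2 fold change of 2.25 ± 0.08 (adjusted p = 3.93e-08) was called, and it was smaller than those of Tlr1, Tlr2, Tlr8, Tlr9, Tlr13 and Cd14 and larger than those of Tlr3 and Tlr4. Myd88 exons overlap those of Acaa1a on the opposite strand, and 6.29% of its 75-base stretches are shared with that gene. The sources used here do not state the strand setting of the counting, so reads from the overlap may have been assigned to either gene or left out. Tlr3 exons likewise overlap Gm45542 on the opposite strand, with 0.992% of the 75-base stretches of Tlr3 shared.

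**Figure D2:**
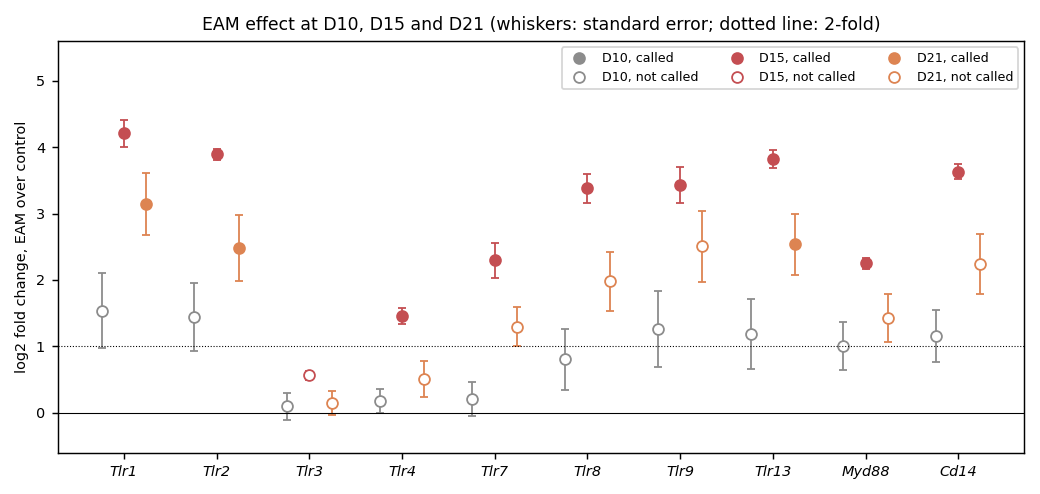
Log2 fold change of EAM over control (vertical axis) for each gene at D10, D15 and D21, with whiskers for the standard error and filled points for called genes. The D15 value of each gene is its highest, from 0.57 for Tlr3 to 4.21 for Tlr1, and the D21 value lies between D10 and D15.

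The change of the EAM effect from D10 to D15 was tested as an interaction over all 24 samples. An FDR below 0.01 was reached by 7 of the 10, compared with 9.4% of all genes in this direction. Differences on the log2 scale were 2.62 ± 0.68 for Tlr1 (SE, adjusted p = 0.005 by edgeR's quasi-likelihood test), 2.40 ± 0.63 for Tlr2, 1.23 ± 0.30 for Tlr4, 2.04 ± 0.41 for Tlr7, 2.53 ± 0.60 for Tlr8, 2.58 ± 0.63 for Tlr13 and 2.42 ± 0.53 for Cd14. Tlr9 (2.12 ± 0.74, adjusted p = 0.0255), Myd88 (1.21 ± 0.45, adjusted p = 0.0347) and Tlr3 (0.42 ± 0.24, adjusted p = 0.153) did not pass. Tlr7 had the smallest adjusted p of the 10 (0.00192). Its D10 values were 18.5, 7.59, 11.3 and 11.4 CPM in EAM and 12.2, 11.7, 9.38 and 8.79 CPM in controls, with the lowest heart of the day in the EAM group. Without D10 EAM replicate 1, the difference passed for 10 of the 10 genes, and over all genes for 18.9% in this direction. Leaving out any other library of these days gave 5 to 7 of the 10, and the calls lost were those of Tlr1 and Tlr2 (adjusted p up to 0.0138 by edgeR's quasi-likelihood test).

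At D21, 3 of the 10 genes were called higher, compared with 4.3% of all genes. The median log2 fold change of the 10 genes was 2.11, against -0.01 over all genes. Tlr1 was at 3.41, 2.16, 2.67 and 3.64 CPM in controls and 32.3, 19.1, 9.03 and 42.2 CPM in EAM (log2 fold change 3.15 ± 0.47, adjusted p = 0.00541 by edgeR's quasi-likelihood test). Tlr13 was at 11.0, 7.88, 6.09 and 9.84 CPM in controls and 59.0, 32.2, 19.1 and 86.6 CPM in EAM (2.54 ± 0.46, adjusted p = 0.00772). Tlr2 was at 11.3, 10.6, 8.98 and 14.8 CPM in controls and 72.5, 45.0, 18.4 and 112 CPM in EAM (2.48 ± 0.49, adjusted p = 0.0099), just within the limit. For all 3, each EAM heart exceeded each control heart, while the EAM hearts themselves differed by more than 4-fold.

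In 5 more genes, the D21 comparison gave log2 fold changes above 1 with adjusted p-values just outside the limit. These were Cd14 (2.24 ± 0.45, adjusted p = 0.0103 by edgeR's quasi-likelihood test), Tlr9 (2.50 ± 0.53, 0.0117), Tlr8 (1.98 ± 0.45, 0.0141), Tlr7 (1.30 ± 0.29, 0.0143) and Myd88 (1.43 ± 0.36, 0.0194). Cd14 was at 16.1, 13.0, 11.5 and 18.7 CPM in controls and at 91.6, 45.3, 24.4 and 112 CPM in EAM. Myd88 was at 19.3, 18.6, 17.5 and 21.3 CPM in controls and at 59.0, 36.2, 23.3 and 83.4 CPM in EAM. EAM replicate 3 was the lowest EAM heart for both genes, and it lay above the highest control. Tlr9 was at 2.09, 1.34, 1.44 and 3.23 CPM in controls and at 13.1, 8.39, 3.48 and 19.6 CPM in EAM. Tlr8 was at 4.32, 4.71, 3.24 and 5.99 CPM in controls and at 21.9, 13.4, 6.08 and 28.7 CPM in EAM. Tlr7 was at 9.92, 7.01, 6.04 and 10.2 CPM in controls and at 24.2, 16.2, 12 and 27.2 CPM in EAM. In all 8 genes the EAM hearts lay above the controls, as they did for 17.8% of genes tested. Tlr4 (0.51 ± 0.27, adjusted p = 0.161) and Tlr3 (0.16 ± 0.18, adjusted p = 0.52) overlapped between groups. For Tlr4 the EAM values were 52.4, 47.3, 27.3 and 73.9 CPM against 37.4, 36.5, 30.0 and 39.8 CPM in controls, so the lowest heart of the day was an EAM heart.

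Among the D21 EAM hearts, replicate 4 was the highest and replicate 3 the lowest for all 10 genes. Ptprc had the same highest and lowest heart, at 149, 96.3, 48.9 and 229 CPM in replicates 1 to 4, and its part in the spread was not tested. The number of calls rested on single libraries. Leaving out any 1 control, EAM replicate 1 or EAM replicate 2 gave 0 calls among the 10 genes, and over all genes these fits called 0 to 70, against 856 with every library. Leaving out EAM replicate 4 gave 1 of the 10 (2.01% of all genes higher) and leaving out EAM replicate 3 gave 8 (9.8%). Same-numbered hearts deviated together at D21, although nothing in the labels links them beyond the number. A fit blocked on replicate number called 7 of the 10 genes, adding Tlr7, Tlr8, Tlr9 and Cd14 (adjusted p = 0.00361 to 0.00931 by edgeR's quasi-likelihood test). Over all genes, that fit called 4.23% higher. DESeq2 and the likelihood ratio test each called 8, compared with 8.93% and 8.88% of all genes, and limma-voom 0.

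From D15 to D21 the EAM effect had a lower fitted value for each of the 10 genes, by 0.40 (Tlr3) to 1.41 (Tlr2) on the log2 scale, but none passed an FDR of 0.01 by edgeR's quasi-likelihood test. At an unadjusted p under 0.05, 5 of the 10 were lower, compared with 17.4% of all genes. The smallest adjusted p belonged to Tlr4 (difference -0.94 ± 0.30, adjusted p = 0.0247). Over all genes 3.79% passed in this direction. The likelihood ratio test and limma-voom also gave 0, and leaving out D21 EAM replicate 4 gave 1. The D21 EAM hearts differ from the D15 EAM hearts in library code as well as in day, and both differences over time share the D15 hearts.

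Per length, the order of the genes differed between control and EAM hearts at D15. Cd14 led in D15 EAM hearts at 99.2 ± 13.0 CPM per kb (SD, n = 4), above all values of Tlr2 (44.9 ± 3.82), which in turn lay above all values of Myd88 (34.0 ± 3.48). Tlr13 followed at 27.2 ± 4.28, and its range was apart from that of Tlr4 at 17.8 ± 1.95. Tlr1 (14.9 ± 2.48), Tlr8 (12.1 ± 2.58), Tlr7 (9.80 ± 3.21), Tlr3 (6.24 ± 0.481) and Tlr9 (5.29 ± 1.61) came next, with neighbours overlapping. The summed level of the 8 receptors was 18.5 to 22.5 CPM per kb in D15 controls and 123 to 153 in D15 EAM hearts.

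As a share of that sum, which does not depend on how libraries are scaled, the receptor make-up differed between groups. Tlr4 made up 32.1% ± 2.89 (SD, n = 4) of receptor transcripts in D15 controls and 12.9% ± 1.14 in D15 EAM hearts, and Tlr3 made up 21.1% ± 2.19 and 4.56% ± 0.648. Conversely, Tlr2 held 15.1% ± 1.55 in controls and 32.6% ± 2.02 in EAM, Tlr13 held 9.56% ± 0.386 and 19.6% ± 1.36, and Tlr1 held 3.98% ± 0.779 and 10.8% ± 1.42. None of these 5 shares overlapped between the groups. Tlr8 (5.78% ± 1.29 and 8.71% ± 1.35), Tlr7 (9.84% ± 1.74 and 7.01% ± 1.83) and Tlr9 (2.45% ± 0.527 and 3.86% ± 1.23) had overlapping values. The 5 endosomal receptors together made up 47.5% to 51.2% in controls and 39.3% to 47.1% in EAM, ranges that did not overlap but lay close together. The larger differences were within each class, between Tlr3 and Tlr13 among endosomal receptors and between Tlr4 and the pair of Tlr2 and Tlr1 among surface receptors.

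At D21, the shares of Tlr1, Tlr2 and Tlr13 were again higher and those of Tlr3 and Tlr4 lower in every EAM heart than in every control, whereas the endosomal share overlapped (46.6% to 50.1% in controls and 42.9% to 51.1% in EAM). Tlr4 was 29.8% ± 2.07 of the receptor sum in controls and 14.6% ± 2.84 in EAM, and Tlr2 was 17.3% ± 1.24 and 28.9% ± 5.14 (SD, n = 4 each). Tlr3 was 22% ± 2.81 in controls and 5.61%, 9.82%, 15.1% and 6.39% in EAM replicates 1 to 4. The heart with the lowest levels, replicate 3, thus had the Tlr3 share nearest to controls. At D10, Tlr3 was 13.6% to 16.4% in controls and 6.49%, 11.1%, 10.6% and 11.9% in EAM. Here too the EAM values lay below the controls, although no fold change of a receptor was called at that day. These shares are descriptions and were not tested.

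**Figure D3:**
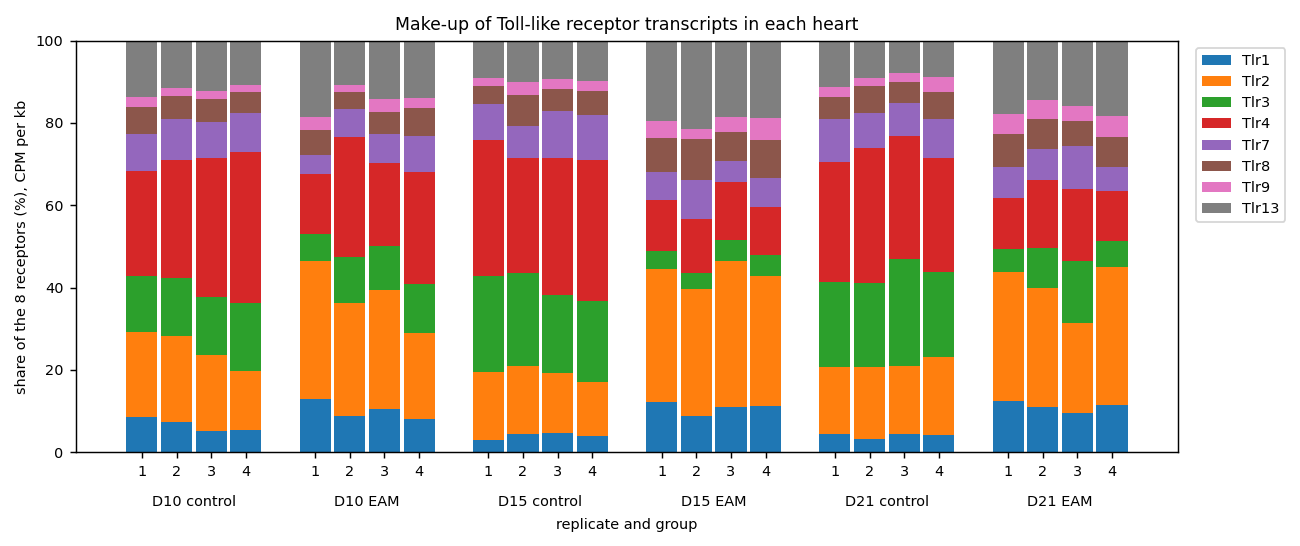
Share of each of the 8 receptors in their summed level per length (vertical axis, percent of CPM per kb, stacked to 100) in each heart, by group and replicate. Tlr4 and Tlr3 take the largest part of the D15 controls (32.1% and 21.1% on average) and a smaller part of the D15 EAM hearts (12.9% and 4.56%), where Tlr2 and Tlr13 (32.6% and 19.6%) are the largest.

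Markers of leukocytes moved with the TLR genes. The summed level of 8 macrophage markers was 334 to 419 CPM in D15 controls and 1349 to 2148 in D15 EAM hearts. All 8 were called higher, compared with 18.1% of all genes. The 6 neutrophil markers summed to 15.9 to 79.4 and 518 to 827 CPM, and all 6 were called. The 5 T cell markers summed to 1.47 to 2.36 and 31.4 to 48.8 CPM, with all 5 called. The marker lists were not split by what controls alone would have kept. T cell markers were so low in controls that some may have passed the filter on low counts only through EAM hearts. The same holds at D21, where Cd8a had no read in 1 control heart. Ptprc was at 16.5 to 20.7 and 244 to 306 CPM. Of 4 B cell markers (0.766 to 2.13 and 1.98 to 11.5 CPM) 0 of the 3 tested were called, of 3 plasmacytoid dendritic cell markers (1.25 to 2.54 and 3.68 to 5.94 CPM) 1 of the 2 tested, and of 5 dendritic cell markers (30.8 to 37.5 and 27.0 to 45.5 CPM) 2. No marker of these lists was without reads in a D15 heart. At the same time cardiomyocyte markers had a sum of 21857 to 26041 CPM in D15 controls and 6013 to 15848 in EAM. Of these markers, 3 of 6 were called lower, compared with 12.9% of all genes. Endothelial markers summed to 856 to 1131 and 581 to 642 CPM, with 1 of 4 called lower. Of 4 fibroblast markers only Col1a1 was called (log2 fold change 4.45 ± 0.38), while the other 3 lay between -0.36 and 0.73. Mitochondrially encoded reads made up 6.1% to 7.14% of reads in D15 controls and 3.19% to 4.31% in D15 EAM hearts, without overlap, and 5.45% to 5.79% and 3.91% to 6.77% at D21. The part of these differences in the D15 and D21 results was not tested.

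At D21, macrophage and T cell markers were mostly called higher in EAM, and other leukocyte markers less often. The macrophage sum was 324 to 501 CPM in controls and 674 to 2002 in EAM with 7 of 8 markers called, and the T cell sum 2.31 to 2.97 and 13.1 to 48.5 CPM with 5 of 5 called. Over all genes, 4.3% were called higher. Neutrophil markers summed to 11.6 to 92.5 and 103 to 386 CPM with 1 of 6 called, and dendritic cell markers to 32.4 to 38.6 and 37.1 to 57.4 CPM with 2 of 5 called. B cell markers summed to 1.06 to 1.93 and 2.15 to 8.78 CPM, with 0 of 1 tested called. Plasmacytoid dendritic cell markers summed to 1.58 to 2.63 and 2.87 to 7.34 CPM, also with 0 of 1 tested called. Ptprc was at 15 to 29.4 CPM in controls and 48.9 to 229 in EAM. Without D21 control replicate 1, 2 or 3 no gene of any kind was called, so these marker calls rested on single libraries.

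Each gene was therefore also set against macrophage transcripts, by scaling each heart to the summed reads of the 8 macrophage markers. This is a change of reference and not a correction for cell number. It shifted the median of all genes at D15 to -2.31 on the log2 scale, and 4.15% of genes were called higher and 85.2% lower. Relative to macrophage markers, 6 of the 10 genes were called higher at D15, namely Tlr1 (1.88 ± 0.26, SE), Tlr2 (1.57 ± 0.23), Tlr13 (1.49 ± 0.22), Cd14 (1.29 ± 0.22), Tlr9 (1.09 ± 0.30) and Tlr8 (1.04 ± 0.23). Adjusted p-values by edgeR's quasi-likelihood test were 1.37e-07 to 0.00141. Tlr3 was called lower (-1.76 ± 0.22, adjusted p = 2.07e-08), Tlr4 was at -0.85 ± 0.22, and Tlr7 (-0.07 ± 0.23) and Myd88 (-0.05 ± 0.23) differed by less than their standard errors. With only Csf1r, Cd68, Fcgr1 and Adgre1 as the reference, 3 genes were called higher (Tlr1, Tlr2 and Tlr13), against 3.03% of all genes, and Tlr3 and Tlr4 (-1.24) lower, against 88.2%. Tlr8 (0.65), Tlr9 (0.71) and Cd14 (0.91) were then not called. With all 8 markers, single libraries also changed calls. Tlr8 was not called without D15 control replicate 1 (0.94) or D15 EAM replicate 2 (0.95). Without D15 EAM replicate 3, Tlr9 was not called (0.99) and Tlr4 was called lower (-1.03).

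In reads per 1000 macrophage marker reads, Tlr2 was at 27.3, 25.3, 23.5 and 21.9 in D15 controls and 70.2, 67.1, 97.3 and 57.0 in EAM. Tlr4 was at 102, 78.7, 99.4 and 104 in controls and 49.3, 52.8, 72.5 and 39.0 in EAM. Tlr2 was thus higher and Tlr4 lower in each EAM heart than in each control, as were 5.04% and 86.9% of all genes. Myd88 was at 60, 48.1, 44.8 and 45.4 in controls and at 43.8, 38.8, 72 and 37.6 in EAM, and these groups overlapped. At D10, 0 of the 10 genes were called on this scale by edgeR's quasi-likelihood test, where 0.02% of all genes were called higher. Tlr1, Tlr2 and Cd14 had an unadjusted p under 0.05, compared with 3.11% of all genes in this direction, and the likelihood ratio test called 0. Without D10 EAM replicate 1 their values on this scale went from 0.97 to 0.33 (Tlr1), from 0.84 to 0.30 (Tlr2) and from 0.58 to 0.32 (Cd14). At D21, Tlr1 was called higher (1.34 ± 0.38, adjusted p = 0.00212, against 1.89% of genes higher) and Tlr3 and Tlr4 lower (-1.59 ± 0.38 and -1.24 ± 0.35, against 82.3% of genes lower). Leaving out D21 control replicate 1 or 2 left 1 of these calls, that of Tlr3. Without control replicate 3, Tlr4 was not called (adjusted p = 0.0106 by edgeR's quasi-likelihood test). Without control replicate 4, Tlr1 was not called (adjusted p = 0.0112 by the same test). With Ptprc as the reference at D21, Tlr1 (0.56, adjusted p = 0.248 by edgeR's quasi-likelihood test) was not called and Tlr7 (-1.28, adjusted p = 0.00618) was called lower besides Tlr3 and Tlr4, where 0.576% of all genes were called higher and 90.8% lower.

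The direction on such a scale depended on the reference. When each heart was scaled to Ptprc, whose own log2 fold change at D15 was 3.98 against a median of 2.45 for the macrophage markers, the median of all genes was at -3.96. On this scale 4 genes were called at D15, namely Tlr3, Tlr4, Tlr7 and Myd88, and all 4 were lower, where 0.93% of all genes were called higher and 93.9% lower. Tlr2 was then at -0.09, Tlr13 at -0.15, Cd14 at -0.35, Tlr9 at -0.56 and Tlr8 at -0.59 on the log2 scale, so that their sign was the opposite of that relative to macrophage markers. Per 1000 Ptprc reads, Tlr2 was at 418 to 593 in D15 controls and 409 to 539 in D15 EAM hearts, and Tlr13 at 432 to 518 and 350 to 532. Tlr3 was at 1071 to 1407 in controls and 111 to 133 in EAM, and Tlr4 at 1846 to 2337 and 279 to 421. Tlr3 was lower in each EAM heart than in each control of the same day on both references at D10, D15 and D21, and Tlr4 was so at D15 and D21. Most genes were below in this way at D15 (86.9% per macrophage marker read and 94.1% per Ptprc read) and at D21 (81% and 89.6%), and fewer at D10 (13% and 2.77%).

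**Figure D4:**
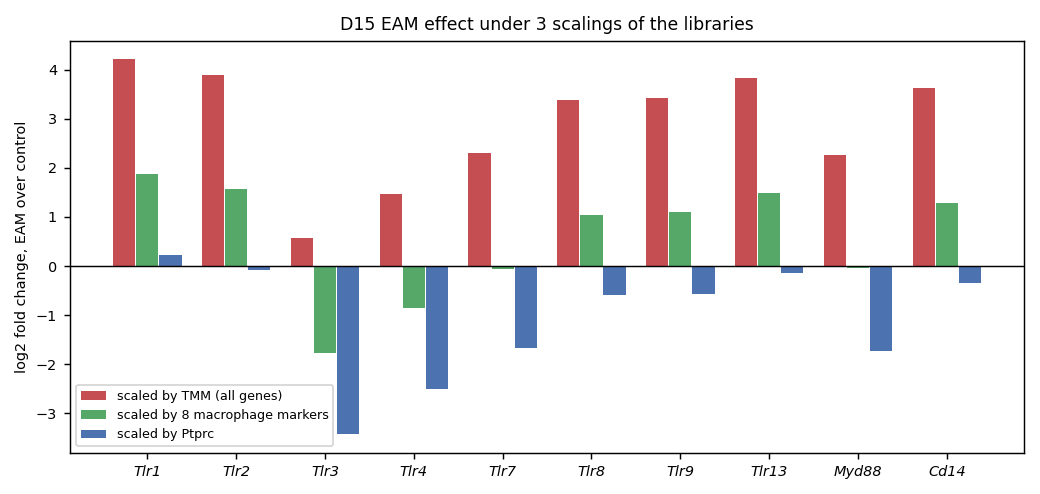
Fitted log2 fold change of EAM over control at D15 (vertical axis) for the 10 genes, with libraries scaled by TMM, by 8 macrophage markers or by Ptprc. Bars start at 0. Tlr2 is at 3.89 under TMM, 1.57 relative to macrophage markers and -0.09 relative to Ptprc, and Tlr3 and Tlr4 lie below 0 under both references other than TMM.

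Other genes of the TLR pathway were examined in lists by role, and their counts stand beside 18.1% of all genes called higher at D15 and 4.3% at D21. Of the 4 other receptors, Tlr11 and Tlr12 would not have been kept at D15 or D21 on the control hearts alone, and their calls are not counted here. Tlr12, a receptor for protozoan profilin, had a mean of 0.0816 CPM in D15 controls, under the limit of 3 reads. Of the other two, 1 was called higher at D15 and 0 at D21 by edgeR's quasi-likelihood test, where 1 had an unadjusted p under 0.05, as did 46.9% of all genes that controls alone would have kept. Tlr6, the other partner of Tlr2, was the one called (log2 fold change 2.45 ± 0.14, with group means of 3.50 and 18.7 CPM). The flagellin receptor Tlr5 was not called. Tlr11 and Tlr12 were not kept by the filter at D10.

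Of 9 coreceptors and chaperones, 6 were called higher and 1 lower at D15 (median log2 fold change 1.05), where 12.9% of all genes were called lower, and 3 were higher at D21. Cd180, a TLR homologue of B cells and myeloid cells, had the largest change (4.22 ± 0.22), and Ly96, which binds lipopolysaccharide together with Tlr4, the smallest that was called (1.05 ± 0.18, 3.45 and 6.95 CPM). Cd36, a fatty acid translocase of cardiomyocytes and endothelium that also serves as a Tlr2 coreceptor, fell (-1.08 ± 0.17, 2070 and 953 CPM, adjusted p = 0.000303 by edgeR's quasi-likelihood test). The Tlr4 partners thus differed, with Cd14 at 3.63 and Ly96 at 1.05 beside 1.46 for Tlr4 itself.

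Of 14 adaptors and kinases, 6 were called higher at D15 (median 0.72) and 2 at D21. Ikbke, a kinase upstream of interferon regulatory factors, had the largest change (5.08 ± 0.11), and its relative Tbk1 the smallest called (1.01 ± 0.07). Of 6 inhibitors tested, 3 were called higher at D15 and 0 at D21, where 3 had an unadjusted p under 0.05, a share near the 46.9% of all genes. The largest change was in Socs1, an inhibitor of cytokine signalling (4.86 ± 0.24), and the smallest called in Irak3, a kinase-like inhibitor of Myd88 signalling (1.77 ± 0.10). Sarm1 was not kept at any day. Of 8 transcription factors, 6 were called higher at D15 and 2 at D21, led by Irf5 (3.81 ± 0.12), a partner of Myd88, with Nfkb1 the smallest called (1.04 ± 0.06).

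Of 6 endogenous ligands, 5 were called higher at D15 and 1 at D21. Tnc, which encodes the matrix glycoprotein tenascin-C, a Tlr4 ligand, had the largest change (6.78 ± 0.26, 2.07 and 222 CPM), and Bgn, which encodes the proteoglycan biglycan, the smallest called (1.38 ± 0.19, 481 and 1220 CPM). S100a8 and S100a9 of this list are also among the neutrophil markers. Of 13 induced targets tested at D15, 6 (Il6, Cxcl2, Cxcl10, Acod1, Ccl3 and Ccl4) would not have been kept on the control hearts alone. Of the other 7, 7 were called higher at D15, compared with 14.4% of all genes that controls alone would have kept. At D21 the genes so kept differed in part, with Cxcl10 among them and Saa3 not, and 3 of 7 were called, compared with 3.49%. Among the 7 kept at D15, Saa3, an acute-phase gene, had the largest change (8.74 ± 0.25, 0.98 and 412 CPM) and the NF-kappaB inhibitor gene Nfkbia the smallest (1.14 ± 0.22, 75.4 and 162 CPM). Acod1, which encodes the itaconate-forming enzyme of activated macrophages, was among those set aside, with group means of 0.205 and 171 CPM. Il10, Il12b and Ifnb1 were not kept at any day, and Cxcl2 and Ccl4 were not kept at D21. At D10, 0 genes of the 7 lists were called by edgeR's quasi-likelihood test, although 7 of the 7 induced targets kept on controls alone had an unadjusted p under 0.05, compared with 15% of all genes so kept. DESeq2, the likelihood ratio test and limma-voom also called 0 of these 7, whereas 6 of them were called with all 12 controls as the reference, along with 1 to 4 genes in each other list, where 4.09% of all genes were called higher. At D21, leaving out EAM replicate 1 or any 1 control gave 0 calls in each of the 7 lists, leaving out EAM replicate 2 gave no call outside the induced targets, and leaving out EAM replicate 4 gave 0 other receptors, 1 coreceptor and 1 adaptor or kinase. Without EAM replicate 3 there were 5 coreceptors, 4 adaptors and kinases, 2 ligands and 1 inhibitor.

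**Figure D5:**
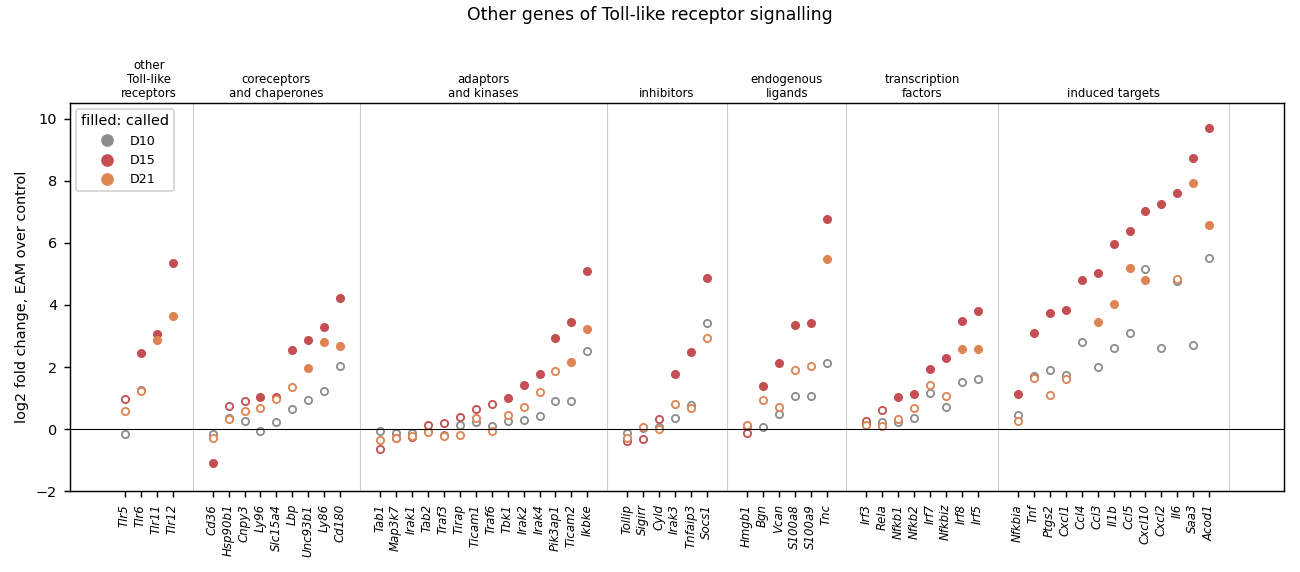
Log2 fold change of EAM over control (vertical axis) for the other genes of TLR signalling at D10, D15 and D21, grouped by role and ordered by the D15 value within a group. Filled points were called, open points were tested and not called. D15 values run from -1.08 for Cd36 to 9.69 for Acod1 (8.74 for Saa3 among genes that controls alone would have kept), and no D10 point is filled. At D15, Tlr11, Tlr12 and 6 induced targets would not have been kept on control hearts alone.

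Across the 24 hearts, Pearson's r of log2(CPM + 1) was computed between the TLR genes and all others with a mean of at least 1 CPM, as a description over points that share group, depth and cell content. Tlr2 was most like Csf2rb (r = 0.996), Lcp2 and Lcp1, and Tlr13 most like Itgam (r = 0.994), Kcnab2 and Lcp1. Tlr1 was most like Rac2 (r = 0.993), Ncf4 and Pirb, Cd14 most like Litaf (r = 0.992), Igsf8 and Cd53, and Myd88 most like Marcksl1 (r = 0.992), Dok2 and Ifi202b. Tlr9 was most like Traf3ip3 (r = 0.991), Rab43 and Il10ra, and Tlr8 most like March1 (r = 0.989), Ugt1a7c and D1Ertd622e. Lcp1, which encodes an actin-bundling protein of leukocytes, was among the nearest of both Tlr2 and Tlr13.

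For Tlr3 and Tlr4 the highest r was lower than for these 7 genes. Tlr3 was most like Eif2ak2 (r = 0.956), Rmi2 and Ddx60, of which Eif2ak2 encodes the double-stranded RNA-dependent kinase PKR. Tlr4 was most like Tiparp (r = 0.977), H6pd and Klf13. Within the set, r between Tlr1 and Tlr2 was 0.988 and between Cd14 and Tlr2 0.991, whereas r between Cd14 and Tlr4 was 0.899 and between Tlr3 and Tlr4 0.665. With deviations from the group means in place of levels, Tlr3 had 0.931 with Eif2ak2 and Tlr2 0.979 with Csf2rb.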

How the data were processed

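Poly(A)-selected, directional libraries were sequenced as paired 75-base reads by the authors, who mapped them to GRCm38 with HISAT2 (2.0.4 in the submitters' processing notes), removed duplicates with Picard and assigned reads to Ensembl genes with featureCounts. The deposited values were raw counts per gene (41480 features, of which 92 were spike-in controls without reads, left out), and the table and the 24 sample files differed in 0 cells. Symbols were taken from the reference gene table (40254 identifiers matched), and positions and exon lengths from GENCODE M21.

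Counts were analysed with edgeR 4.0.16 in R 4.3.3 (TMM, quasi-likelihood test, Benjamini-Hochberg adjustment over all kept genes). A gene was kept where 4 or more samples had 10 or more reads, and calls needed an FDR below 0.01 and, except for differences between effects, a 2-fold change. Within-day comparisons used 8 hearts, and changes over time used all 24. DESeq2 1.42.0 and limma 3.58.1 (voom) were among the alternatives, and the scripts were tested on simulated data. All comparisons across days share samples. Nothing in the labels says more of replicates than a number, so p-values measure the spread between these samples. Same-numbered EAM and control hearts deviated together at D21 (4 of 4 correlations over 0.1, range 0.107 to 0.316), but not at D10 (2 of 4) or D15 (0 of 4), so at D21 the fit blocked on number is given beside the reported fit, which has no block. Fold changes of receptors and lists rest on counts, and 3 reads give a floor for counting error only. The 10 genes, the pathway and marker lists and the tests were chosen with earlier results of these data known. Named pathway genes are those with the largest and the smallest called change at D15 in each list, those called lower and those not kept, with Saa3 added after its values were seen, as was the split by genes that controls alone would have kept, and for likeness the 3 genes with the highest r (those of Tlr7 are not reported here).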

Additional observations from a re-analysis of the deposited data

Results flagged for a closer look

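Within groups of 4 hearts, a heart was singled out when its gap to the nearest other heart took up more of the range of the group than Dixon's 95% critical value allows. Of 60 groups checked, 4 had such a heart, and chance gives about 5%. D10 EAM replicate 1 was high for Tlr1 (41.6 CPM), Tlr4 (78.2 CPM) and Tlr13 (77.5 CPM). D10 control replicate 3 was high for Tlr4 at 48.9 CPM, where the other 3 controls lay between 46.3 and 46.6 CPM.

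The EAM effect differed between D15 and D10, tested as an interaction with edgeR, for 7 genes. On the log2 scale the D15 effect exceeded the D10 effect by 2.62 for Tlr1, 2.40 for Tlr2, 1.23 for Tlr4, 2.04 for Tlr7, 2.53 for Tlr8, 2.58 for Tlr13 and 2.42 for Cd14.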

How the results depend on the processing

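At D15 the count of called genes stayed at 9, or 10 with no fold limit, under every alternative run. At D10 it was 0 except with all 12 controls (6). At D21 it was 8 with the likelihood ratio test, DESeq2, all 24 samples in the fit or all 12 controls, against 3 as reported. It was 7 with the replicate block, 4 with no filter on low counts and 0 with limma-voom. With edgeR's earlier quasi-likelihood form (Tlr2 adjusted p = 0.0102) or total counts (Tlr2 adjusted p = 0.0106) it was 2, and Tlr2 lost its call. With 1 library left out it was 0 to 8. The D15 to D21 count was 0, and 0 to 1 with a library left out. The D10 to D15 count ranged from 5 to 10 with a library left out and was 9 with the replicate block. Relative to macrophage markers, the D15 count of 7 became 4 with Ptprc, and the D21 count of 3 ranged from 1 to 3 with a library left out. Among the 10 genes the replicate block changed no other count by more than 1.5 times, but over all genes it moved the D15 to D21 count from 2033 to 433, the D10 count relative to macrophage markers from 3 to 769 and the D21 against D10 control count from 44 to 158.

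Of the alternatives for single genes, 1467 kept direction and side of the limit, 50 passed it newly, 57 no longer passed with the sign kept and 36 changed sign (5 of these lost a call), the latter at values near 0 or with Ptprc as the reference. With Ptprc, D10 values were -0.57 (Tlr8), -0.11 (Tlr9), -0.16 (Tlr13), -0.35 (Myd88) and -0.21 (Cd14), D15 values -0.088 (Tlr2), -0.59 (Tlr8), -0.56 (Tlr9), -0.15 (Tlr13) and -0.35 (Cd14), and D21 values -0.12 (Tlr2), -0.60 (Tlr8), -0.081 (Tlr9), -0.053 (Tlr13) and -0.35 (Cd14). For Tlr9 in D21 against D10 controls, limma-voom gave -0.056, RLE normalization -0.014 and the replicate block -0.020. With a library left out, ranges crossing 0 were -0.14 to 0.23 (Tlr3), -0.056 to 0.29 (Tlr4) and -0.074 to 0.38 (Tlr7) at D10, -0.042 to 0.24 (Tlr3) at D21, and -0.32 to 0.018 and -0.31 to 0.22 for Tlr9 in D15 and D21 controls against D10. Relative to macrophage markers they were -0.19 to 0.42 (Tlr8) and -0.018 to 0.77 (Tlr13) at D10, and -0.31 to 0.054 (Myd88) and -0.24 to 0.024 (Tlr7) at D15. The cause was not tested.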
